A study of Mus musculus with 18 samples.

Results

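The genes described here are 9 genes of adult neurogenesis and of immature neurons, Sox4, Sox11, Neurod1, Neurod2, Eomes, Dcx, Igfbpl1, Stmn1 and Stmn2. They were taken by symbol from the 55291 gene symbols of the files, and each of the 9 symbols was present in all 18 libraries. In the dentate gyrus of the adult hippocampus, stem cells with radial processes give rise to dividing intermediate progenitors, which carry the T-box factor Eomes. Their daughters pass through a neuroblast and immature neuron state, in which Dcx and the SoxC factors Sox4 and Sox11 are present, and mature into granule cells. Neurod1 and Neurod2, stathmins and the SoxC factors are not restricted to newborn neurons, since mature neurons transcribe several of them.

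The samples came from the right hippocampus of male wild-type C57BL/6J mice. Every group, controls included, received AAV_DJ-GfaABC1D-EGFP-Rpl10a in the right CA3 at 6 weeks of age, a virus whose astrocyte promoter drives a GFP-tagged ribosomal protein. The KA group was given kainic acid, a glutamate receptor agonist (50 nL of 20 mM), in the right dentate gyrus 2 weeks after the AAV, and its RNA was collected 14 days later. The AAV control group had no second injection, and its RNA was collected 2 weeks after the AAV, so that these mice were younger and carried the virus for a shorter time than the KA mice. The PBS group received PBS in place of KA, with times not given in the sources used here. Each group had 3 samples, each a pool of 3 to 4 hippocampi, and each homogenate gave an immunoprecipitated (IP) library of RNA bound to tagged ribosomes and an input library of the whole homogenate. The p-values measure the spread between 3 pools. Tests of IP against input, and of the change in that ratio, took the IP and input libraries of a homogenate as unpaired unless a block is named.

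Library totals ran from 7991681 to 16032180 counts, with a median of 10313126. AAV control #3 stood apart from the other AAV control samples, with root mean square differences of 0.603 to 0.649 (log2 CPM) in input against 0.207 between #1 and #2, and of 0.690 to 0.704 in IP against 0.259. KA #3 also differed from KA #1 and #2, by 0.399 to 0.402 in input against 0.207 and by 0.472 to 0.508 in IP against 0.266, and the PBS IP libraries differed from each other by 0.395 to 0.532. Both were sequenced in run 2, KA and AAV control #1 and #2 in run 1, and all PBS samples in run 3, so that run and group cannot be told apart in any comparison with PBS. The labelled cell type was checked in IP of the AAV control group, where all 8 astrocyte markers were enriched over input and 7 of 8 mature neuron markers were depleted. The PBS group gave the same counts. In KA IP all 8 astrocyte markers were enriched, at a median log2 fold change of 1.79 against 3.10 in AAV control. Only 3 of 8 mature neuron markers were depleted there. All 6 oligodendrocyte markers were enriched in KA IP, and 0 of 6 in IP of either control group.

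On GRCm38 (GENCODE), Neurod1 lies at chr2:79452521-79456751 and Neurod2 at chr11:98325415-98329648, both on the minus strand. Stmn1 (chr4:134468320-134473843) and Stmn2 (chr3:8509360-8561606) lie on the plus strand. Dcx occupies chrX:143855842-143933311 on the minus strand, with 7 exons that cover 12647 bases. Sox4 (chr13:28948919-28953713) and Sox11 (chr12:27334264-27342574) are genes of 1 exon on the minus strand, Igfbpl1 lies at chr4:45809468-45826923 on the minus strand and Eomes at chr9:118478212-118486132 on the plus strand. Neurod1 shares 201 exon bases with Cerkl on its own strand, which held at most 79 counts in any library. Sox4, Neurod1 and Eomes also overlap antisense or noncoding transcripts on the opposite strand, and reads of such pairs cannot be told apart where strand was not counted. For Sox4 the overlap, with the noncoding Gm26735, takes 2616 of its 4795 exon bases, against 154 bases for Neurod1 and 118 for Eomes. Gm26735 was not among the counted gene symbols.

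Neurod1 and Neurod2 are proneural-type basic helix-loop-helix factors, a class that binds the E-box CANNTG, and their own upstream sequences are shown because both genes changed in IP. The stretch of Neurod1 covers 30 bases at chr2:79456857-79456886 and that of Neurod2 the 247 bases before its annotated start at chr11:98329649-98329895, both from RefSeq (GRCm38.p6), minus strand, 5′ to 3′, with E-boxes in capitals.
Neurod1: gggaagacCATATGgcgcatgccggggagg
Neurod2: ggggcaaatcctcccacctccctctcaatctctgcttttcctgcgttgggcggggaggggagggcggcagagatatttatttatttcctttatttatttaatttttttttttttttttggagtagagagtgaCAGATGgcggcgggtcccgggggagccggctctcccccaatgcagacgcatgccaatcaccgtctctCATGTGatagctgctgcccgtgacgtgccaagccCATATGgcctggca
The Neurod1 stretch is a 30-base piece cut around its 1 E-box, and the Neurod2 stretch holds 3. The 135 bases before the annotated start of Neurod1, from which the piece was cut, overlap an annotated exon of Cerkl. The motif reads the same on both strands. Of 27025 genes in the RefSeq promoter table, 66.0% had at least 1 CANNTG in the 250 bases before the start and 12.1% had at least 3. Of the 6 members with an entry, Dcx and Eomes had no E-box in the same 250 bases, Neurod1 had 1 and Neurod2 had 3 (only bases before the annotated gene are printed), and Igfbpl1, Stmn1 and Stmn2 had no entry. These matches describe letters and not bound sites.

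Levels per kilobase differed widely among the genes. In input of the AAV control group, Stmn1, a stathmin that binds tubulin and destabilizes microtubules, stood at 551 ± 84.0 FPKM (SD, n = 3), Stmn2, its neuron-restricted relative, at 85.3 ± 15.7 and Neurod2 at 46.4 ± 15.6. Neurod1 followed at 11.5 ± 2.60, Sox4 at 5.70 ± 1.504, Sox11 at 4.19 ± 1.91, Dcx at 1.72 ± 0.397, Igfbpl1 at 0.979 ± 0.0947 and Eomes at 0.148 ± 0.0453 FPKM. The ranges of Sox4 and Sox11 overlapped, as did those of Sox11 and Dcx, but within each of the 3 libraries Sox4 lay above Sox11 and Sox11 above Dcx. The order by mean was the same in the PBS group, and in the KA group only Dcx and Igfbpl1, whose ranges overlapped, changed places. Eomes held 1 to 18 counts per library, near the limit of 3 that a count of 0 allows, and no fold is given for it.

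**Figure D1:**
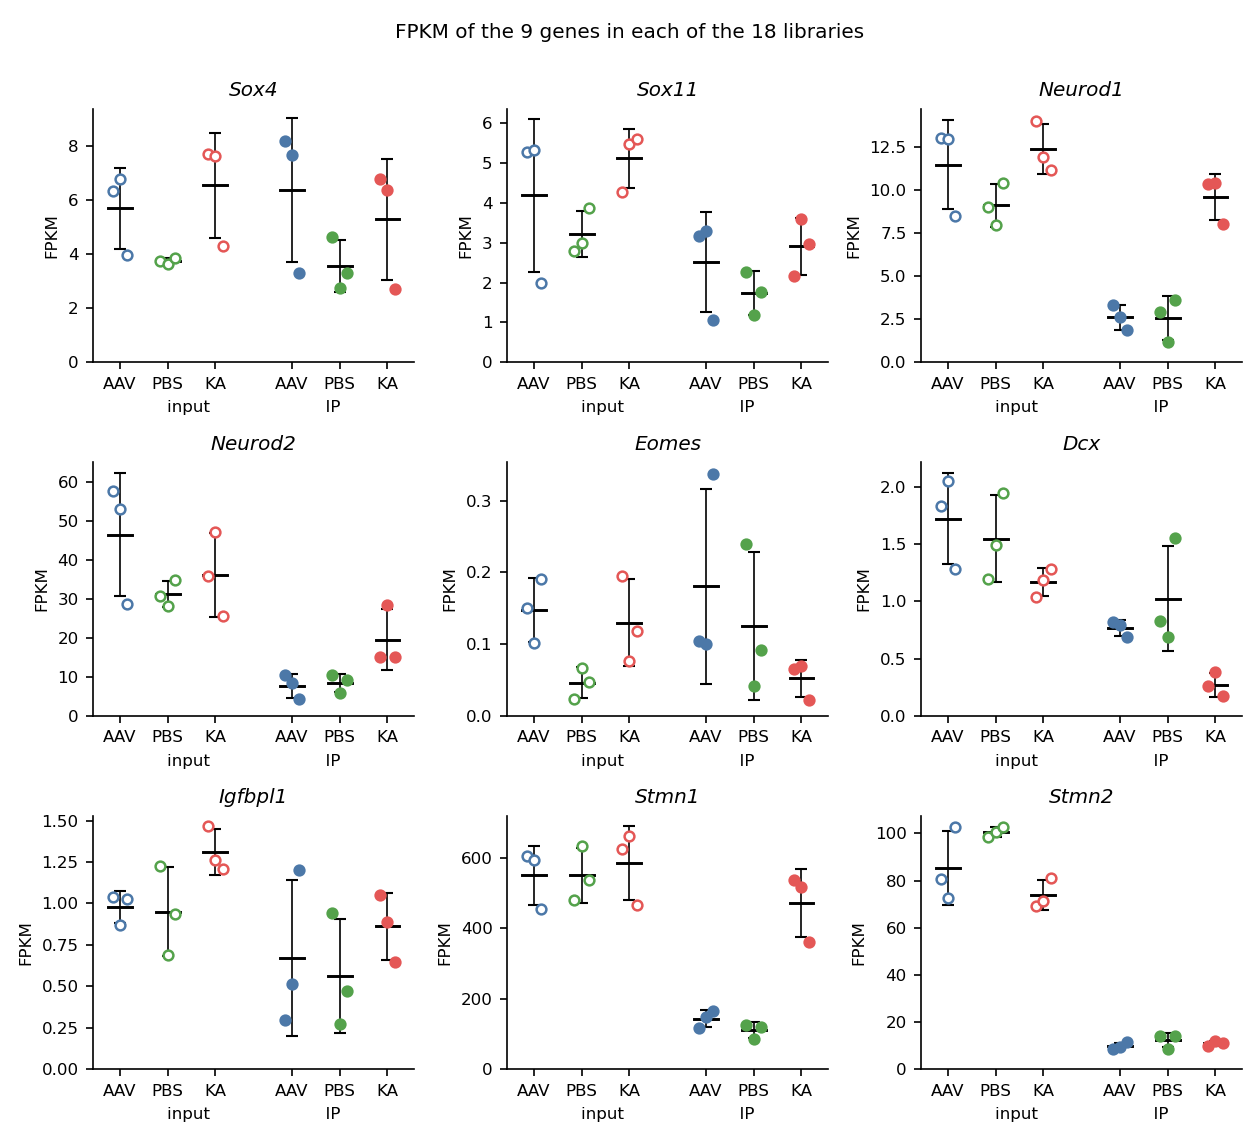
FPKM of each gene in input (open points) and IP (filled points) libraries of the AAV control (AAV), PBS and KA groups; points are the 3 samples, thick lines the mean and bars the SD. Neurod1, Neurod2 and Stmn1 were higher in all 3 KA IP libraries than in any control IP library, Dcx was lower, and Stmn2 stayed between 8.61 and 14.2 FPKM in all 9 IP libraries.

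In whole hippocampal tissue, none of the genes reached the DEG call (adjusted p under 0.05 and at least 2-fold) after KA. Between the KA and AAV control groups, 0 of the 7 members tested were DEGs, against 2.7% of all 10809 genes tested (edgeR's quasi-likelihood test, Benjamini-Hochberg adjustment, as for every adjusted p below). 1 of the 7 had an unadjusted p under 0.05, and DESeq2 and limma voom also called 0. In these bulk samples, fewer cells of a type and less RNA per cell cannot be told apart.

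Dcx encodes doublecortin, the microtubule-associated protein used to mark neuroblasts and immature neurons. In input it measured 1.83, 2.05 and 1.28 FPKM in AAV control #1 to #3, 1.196, 1.49 and 1.95 in PBS and 1.04, 1.19 and 1.28 in KA. All 3 KA values lay below the AAV control values, the nearest pair (1.2822 and 1.2795) by a small margin, as in 10.4% of all genes tested, and they overlapped those of PBS. The log2 fold change was -0.54 ± 0.197 (SE) against AAV control (adjusted p = 0.202) and -0.40 ± 0.168 against PBS (adjusted p = 0.103). Without AAV control #3 it was -0.67 with an adjusted p of 0.0236, and in run 1 alone -0.81 with an adjusted p of 1.24e-04, still less than 2-fold.

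Stmn1 in input measured 606, 594 and 455 FPKM in AAV control, 481, 634 and 537 in PBS and 627, 664 and 468 in KA, and the groups overlapped. Its log2 fold change in KA was 0.09 (95% confidence interval -0.33 to 0.51) against AAV control and 0.07 (-0.27 to 0.41) against PBS. The input of Neurod1, which is needed for the survival and maturation of newborn granule cells, measured 13.0, 13.0 and 8.51 FPKM in AAV control, 9.01, 7.97 and 10.4 in PBS and 14.01, 11.96 and 11.2 in KA. Its fold change was 0.12 (-0.26 to 0.50) against AAV control, and 0.43 (0.16 to 0.70, adjusted p = 0.0241) against PBS.

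Against PBS, 0 of 7 members were DEGs in input either, with 5.35% of all genes called, while 5 of the 7 had an unadjusted p and 4 an adjusted p under 0.05, against 27.7% of all genes at any fold. DESeq2 and limma voom also called 0. The SoxC factors, which drive the neuronal program in newborn cells, were higher in all KA libraries than in all PBS libraries, as were 18.4% of all genes. Sox4 measured 3.74, 3.62 and 3.85 FPKM in PBS and 7.72, 7.62 and 4.32 in KA, a log2 fold change of 0.78 ± 0.175 (adjusted p = 0.00823). Sox11 measured 2.78, 2.99 and 3.88 in PBS and 4.26, 5.48 and 5.61 in KA, a log2 fold change of 0.67 ± 0.148 (adjusted p = 0.00752). In AAV control, Sox4 (6.35, 6.77 and 3.98) and Sox11 (5.27, 5.32 and 1.98) overlapped the KA values, with log2 fold changes of 0.20 (-0.34 to 0.74) and 0.33 (-0.41 to 1.07). Stmn2 in input was lower in KA (69.0, 71.1 and 81.0 FPKM) than in PBS (98.7, 100.5 and 102.8), as were 17.5% of all genes, with a log2 fold change of -0.45 ± 0.131 (adjusted p = 0.0260), and overlapped AAV control (80.7, 72.5 and 102.8).

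Neurod2, a factor of excitatory neurons, measured 57.7, 53.0 and 28.6 FPKM in AAV control input, 30.6, 28.0 and 34.6 in PBS and 35.7, 47.0 and 25.6 in KA, with overlap throughout. Igfbpl1, a member of the insulin-like growth factor binding protein family found in immature neurons, did not pass the filter of FPKM above 1. It held 27, 27 and 42 counts in AAV control input, 40, 24 and 31 in PBS and 47, 39 and 40 in KA. Fitted with edgeR's filterByExpr in place of the FPKM filter, its log2 fold changes were 0.40 (-0.18 to 0.97) against AAV control and 0.42 (-0.21 to 1.06) against PBS.

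The controls were compared with each other as background. Between PBS and AAV control, 0 of 7 members in input and 0 of 6 in IP were DEGs, as were 0% of all genes in either, by edgeR. At an unadjusted p under 0.05 there were 901 genes in input and 1153 in IP, and DESeq2 called 7 higher and 7 lower in input and 11 higher and 5 lower in IP. Among the members there were 2 members in input (Neurod2 and Sox4) and 1 in IP (Sox4), with 0 members called by DESeq2 or limma voom. The absence of calls rested on AAV control #3. Without it, 207 genes were higher and 158 lower in PBS input and 366 higher and 180 lower in PBS IP, and Sox4 in IP, a log2 fold change of -0.78 with all libraries, became a DEG at -1.06 ± 0.231 (adjusted p = 0.0266).

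In IP, Neurod1, Neurod2 and Stmn1 rose after KA against both control groups, by 1.21 to 2.09 on the log2 scale, and Dcx fell. Of the 6 members tested against AAV control, 3 were DEGs, all higher, with 11.6% of all 9729 genes called and 6.39% called higher. Against PBS the same 3 members were DEGs, with 17.4% of all 9847 genes called and 8.08% called higher. Both comparisons share the KA libraries.

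Neurod1 in IP measured 3.36, 2.61 and 1.86 FPKM in AAV control, 2.95, 1.155 and 3.595 in PBS and 10.4, 10.4 and 8.06 in KA. The lowest KA library lay above the highest control library, an order seen in 16.8% of all genes against AAV control and 22.7% against PBS. The log2 fold change was 1.95 ± 0.215 against AAV control (adjusted p = 0.00124) and 1.93 ± 0.290 against PBS (adjusted p = 8.46e-04). Leaving out any library kept the call, with values from 1.79 to 2.13 against AAV control and from 1.64 to 2.15 against PBS.

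Stmn1 in IP measured 117, 148 and 164 FPKM in AAV control, 126, 86.0 and 121 in PBS and 537, 518 and 363 in KA. KA libraries were thus at more than 2 times the highest control library. The log2 fold change was 1.75 ± 0.239 against AAV control (adjusted p = 0.00289) and 2.09 ± 0.244 against PBS (adjusted p = 2.11e-04), and it ranged from 1.59 to 1.93 and from 2.001 to 2.21 with a library left out. In run 1 alone it was 2.06 against AAV control.

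Neurod2 in IP measured 10.3, 8.35 and 4.15 FPKM in AAV control, 10.3, 5.82 and 9.22 in PBS and 15.1, 28.4 and 15.04 in KA. KA #2 stood well above the other KA libraries, and no KA library fell into the range of the controls. The log2 fold change was 1.43 ± 0.343 against AAV control (adjusted p = 0.0240) and 1.21 ± 0.262 against PBS (adjusted p = 0.00536). Without KA #2 the values were 1.11 (adjusted p = 0.0841) and 0.89, so that both calls were lost, and without AAV control #2 the first call was lost at 1.48 (adjusted p = 0.0699).

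Dcx did not pass the FPKM filter in IP. Its counts in IP were 96, 96 and 112 in AAV control, 168, 100 and 206 in PBS and 36, 50 and 24 in KA, and its FPKM values were 0.819, 0.794 and 0.691, then 0.829, 0.692 and 1.55, then 0.256, 0.380 and 0.173. Every KA library lay below every control library, as in 20.2% of the genes past the FPKM filter against AAV control and 23.3% against PBS. With filterByExpr, Dcx fell by 1.41 ± 0.282 on the log2 scale against AAV control (adjusted p = 0.0107) and by 1.73 ± 0.309 against PBS (adjusted p = 9.44e-04), with 5.81% and 14.9% of all genes called lower in those fits. Without KA #1 the value against AAV control was -1.34 with an adjusted p of 0.0520, and the call was lost. Without AAV control #3 it was -1.42 (adjusted p = 0.00534).

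The remaining members were not DEGs in IP. Stmn2 measured 8.61, 9.56 and 11.4 FPKM in AAV control, 14.2, 8.69 and 14.1 in PBS and 9.60, 11.8 and 11.2 in KA, with log2 fold changes of 0.19 (-0.29 to 0.66) and -0.15 (-0.58 to 0.27). Its groups overlapped, unlike those of Stmn1. Sox4 measured 8.19, 7.66 and 3.32 in AAV control, 4.63, 2.74 and 3.30 in PBS and 6.80, 6.37 and 2.70 in KA, with the sample #3 of both run-2 groups low. Sox11 measured 3.18, 3.28 and 1.06, then 2.28, 1.18 and 1.765, then 2.16, 3.59 and 2.98, with a log2 fold change of 0.76 ± 0.259 against PBS (adjusted p = 0.0409, less than 2-fold) and 0.31 (-0.57 to 1.19) against AAV control.

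Igfbpl1 in IP held 9, 16 and 50 counts in AAV control, 49, 10 and 16 in PBS and 38, 30 and 23 in KA, with a single high library in each control group. With filterByExpr its log2 fold change was 0.40 ± 0.524 against AAV control (adjusted p = 0.636) and 0.74 ± 0.451 against PBS (adjusted p = 0.206). The call turned on those libraries. Without AAV control #3 the value was 1.24 (adjusted p = 0.0457) and without PBS #1 it was 1.404 (adjusted p = 0.0362). Eomes held 4, 4 and 18 counts in AAV control, 16, 2 and 4 in PBS and 3, 3 and 1 in KA.

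**Figure D2:**
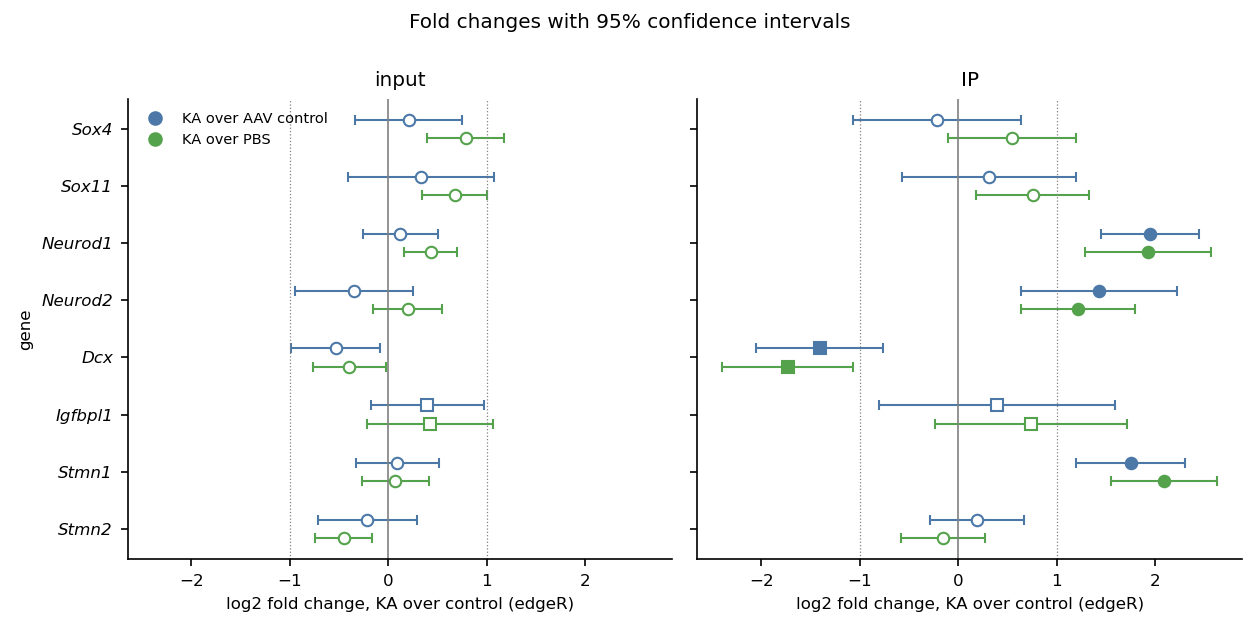
Log2 fold change of KA over AAV control (blue) and over PBS (green) in input and IP, with 95% confidence intervals; filled symbols are DEGs, circles passed the FPKM filter and squares were fitted with filterByExpr where they did not pass it. Filled symbols occur only in IP, for Neurod1 (1.95 and 1.93), Neurod2 (1.43 and 1.21), Stmn1 (1.75 and 2.09) and Dcx (-1.41 and -1.73).

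The IP to input ratio compares ribosome-bound RNA of the tagged cells with RNA of the same homogenate, and a ratio under 1 marks a gene depleted from the astrocyte fraction. In the AAV control group, 4 of the 6 members tested were lower in IP at the DEG call (Neurod1, Neurod2, Stmn1 and Stmn2), with 26.4% of all genes called and 13.1% called lower. The same 4 were called lower in the PBS group, with 27.1% and 12.3%. In the KA group only Stmn2 was called, with 12.6% of all genes called and 4.51% called lower, and with filterByExpr (17.3% of genes called) Dcx joined it at -1.84 ± 0.253 (adjusted p = 6.26e-04).

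The FPKM ratio of Neurod1 was 0.258, 0.201 and 0.219 in the AAV control homogenates, 0.328, 0.145 and 0.344 in PBS and 0.740, 0.871 and 0.719 in KA. That of Stmn1 was 0.194, 0.250 and 0.362, then 0.262, 0.135 and 0.225, then 0.856, 0.781 and 0.775. For both genes every KA homogenate lay above all 6 control homogenates, an order that 21.5% of all genes showed against AAV control and 21% against PBS. The edgeR estimate of IP over input for Neurod1 was -1.99 ± 0.242 (log2) in AAV control and -1.73 ± 0.261 in PBS, but -0.15 (-0.43 to 0.12) in KA. For Stmn1 it was -1.77 ± 0.232, -2.19 ± 0.231 and -0.10 (-0.50 to 0.31). FPKM ratios rest on library totals and the edgeR estimates on TMM factors, so the scales differ slightly.

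Neurod2 had ratios of 0.179, 0.158 and 0.145 in AAV control, 0.338, 0.208 and 0.266 in PBS and 0.422, 0.605 and 0.588 in KA, again with no overlap between KA and the controls. The controls were apart too, with all PBS ratios above all AAV control ratios, as in 6.83% of all genes. Stmn2 had the lowest mean ratio in every group, at 0.139, 0.166 and 0.138 in KA, beside 0.107, 0.132 and 0.111 in AAV control and 0.144, 0.0865 and 0.137 in PBS. Its edgeR estimate was -2.55 ± 0.181 in KA and -2.96 ± 0.266 in AAV control (adjusted p = 5.32e-05 and 1.87e-04). Dcx moved in the opposite direction to Neurod1, with ratios of 0.447, 0.387 and 0.539 in AAV control, 0.693, 0.464 and 0.795 in PBS and 0.245, 0.320 and 0.135 in KA. All KA ratios lay below the control ratios, as in 27.2% of the genes past the FPKM filter against AAV control and 25.9% against PBS.

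The difference in the ratio between KA and a control was tested as an interaction across 12 libraries, without pairing IP and input of a homogenate. Against AAV control, 3 of 6 members passed, with 9.42% of all genes called and 5.1% called higher. The log2 ratio was higher in KA by 1.85 ± 0.262 for Neurod1 (adjusted p = 9.77e-04), by 1.68 ± 0.290 for Stmn1 (adjusted p = 0.00306) and by 1.80 ± 0.474 for Neurod2 (adjusted p = 0.0265). Against PBS the same 3 passed, with 13.9% of all genes called and 4.98% called higher, at 1.495 ± 0.314 (adjusted p = 0.00427), 2.01 ± 0.275 (adjusted p = 3.25e-04) and 1.01 ± 0.341 (adjusted p = 0.0431). The Neurod2 interactions were lost when a homogenate was left out in 5 of 6 cases against AAV control and in 6 of 6 against PBS, with values from 1.68 to 1.94 and from 0.89 to 1.16. With the replicate block, which pairs IP and input of a homogenate, and all libraries, they were 1.80 (adjusted p = 1.93e-05) and 1.01 (adjusted p = 0.00137). For Stmn2 the difference was 0.42 (-0.25 to 1.08) against AAV control and 0.29 (-0.23 to 0.82) against PBS, and with the block 0.41 (adjusted p = 0.0345, less than 2-fold) and 0.31 (adjusted p = 0.194).

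With filterByExpr, Dcx had a difference of -0.85 ± 0.323 against AAV control (adjusted p = 0.136) and of -1.28 ± 0.341 against PBS (adjusted p = 0.0156, with 14% of genes called), which was lost without KA #3, at -0.91 (adjusted p = 0.0695). With the block, the value against AAV control was -0.86 with an adjusted p of 0.0340. Sox4 had ratios of 1.29, 1.13 and 0.835 in AAV control, 1.24, 0.756 and 0.855 in PBS and 0.881, 0.836 and 0.626 in KA, so it was not depleted from IP at the DEG call in any group, and Sox11 had mean ratios of 0.586, 0.556 and 0.565.

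**Figure D3:**
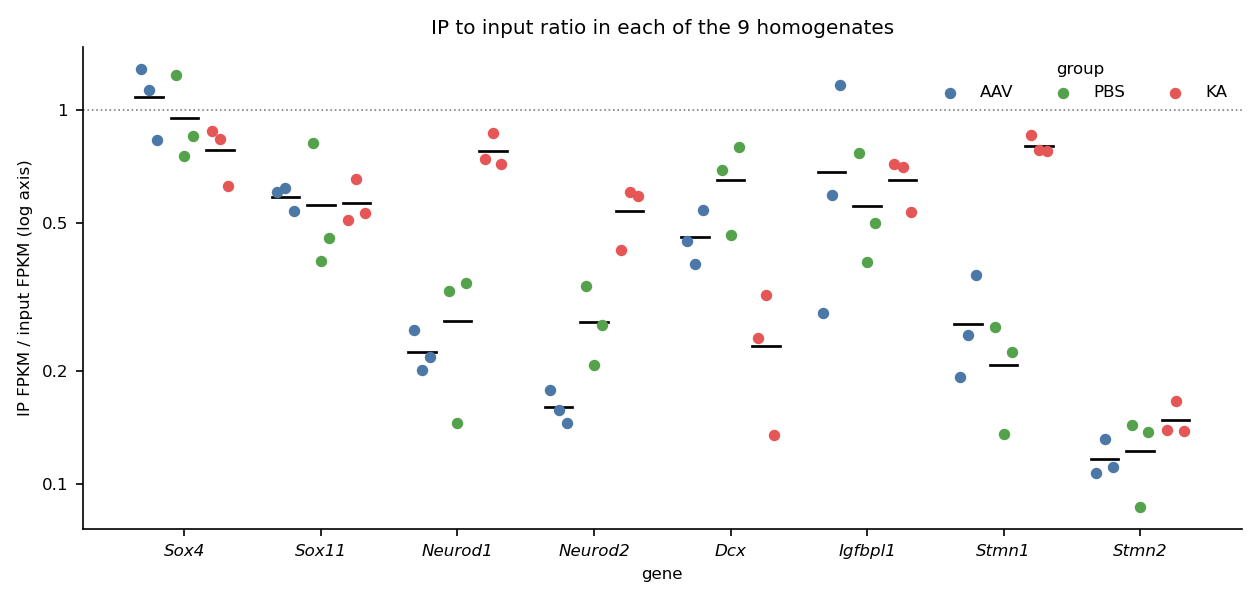
FPKM in IP divided by FPKM in input (log axis) for each of the 9 homogenates, with AAV control in blue, PBS in green and KA in red and the mean as a black line; Eomes is left out for its low counts. KA points of Neurod1 (0.719 to 0.871), Neurod2 (0.422 to 0.605) and Stmn1 (0.775 to 0.856) lie above all control points, those of Dcx (0.135 to 0.320) below.

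Related genes were read from lists of the same pathway. Of the immature neuron genes for cytoskeleton, adhesion and RNA binding, 0 of 18 tested were DEGs in KA input against AAV control (median log2 fold change 0.06, all genes -0.03). In IP, 6 of 16 tested rose and 1 fell (median 0.99, all genes -0.02), and the background is the 6.39% of genes called higher. The stathmins Stmn3 and Stmn4, neuronal relatives of Stmn1, rose in IP by 2.63 ± 0.226 (adjusted p = 4.97e-04) and 2.52 ± 0.347 (adjusted p = 0.00298). Stmn3 went from 197 ± 44.2 FPKM to 1156 ± 35.8 and Stmn4 from 37.9 ± 13.2 to 216 ± 67.5. Mllt11 rose by 1.91 ± 0.192 (adjusted p = 8.49e-04), and Gap43, a growth cone protein, Marcksl1 and Elavl3, a neuronal RNA-binding protein, were also DEGs. Against PBS, 0 of 18 were DEGs in input and in IP 7 of 15 rose and 1 fell (median 0.97). Against AAV control, Calb2 (calretinin), which marks a short immature stage of granule cells and also interneurons and mossy cells, fell in IP by 1.39 ± 0.220 (adjusted p = 0.00515). In input Calb2 went the other way without reaching the call, with a log2 fold change of 0.60 ± 0.202 (adjusted p = 0.161). Dclk1, the kinase related to Dcx, had a log2 fold change against AAV control of 0.34 ± 0.238 in IP (adjusted p = 0.361) and 0.29 ± 0.151 in input (adjusted p = 0.386).

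Of the neuronal transcription factors, 0 of 7 tested were DEGs in input (median -0.39), while in IP 2 of 6 rose and 1 fell (median 0.995). Against PBS, 1 of 7 fell in input (Neurod6, median -0.06), and in IP 3 of 6 rose (Prox1, Bcl11b and Zbtb18) and 1 fell (Neurod6, median 1.09). Unless PBS is named, the values that follow are against AAV control. Prox1, which specifies granule cell identity, rose in IP by 1.68 ± 0.203 (adjusted p = 0.00182), from 3.76 ± 1.07 to 11.5 ± 1.503 FPKM. Btg2, a gene of progenitors leaving the cell cycle, rose in IP by 1.22 ± 0.305 (adjusted p = 0.0279) and was not a DEG against PBS. Neurod6, a relative of Neurod1 and Neurod2 found in pyramidal cells, fell by 1.66 ± 0.347 (adjusted p = 0.0151), and had a log2 fold change of -1.17 ± 0.282 in input (adjusted p = 0.0608). Against PBS it fell in input by 1.31 ± 0.184 (adjusted p = 6.29e-04) and in IP by 2.43 ± 0.229 (adjusted p = 5.17e-05). The members of the NeuroD family thus differed in direction in IP. Neurod4 was under 1 FPKM in every library. In input it measured 0.209 ± 0.191 FPKM in AAV control and 0.0783 ± 0.0464 in PBS, and was listed at 0 in all 3 KA libraries. Sox12, the third SoxC gene, had log2 fold changes of -0.37 ± 0.259 in IP and -0.39 ± 0.248 in input (adjusted p = 0.360 and 0.487).

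Of the neural stem and progenitor genes, 1 of 7 tested rose in KA input (median 0.37, with 2.52% of all genes called higher), and in IP 1 of 9 rose and 4 fell (median -0.75), with 5.22% of all genes called lower. Against PBS, 4 of 8 rose in input (Hopx, Thbs4, Fabp7 and Sox9, median 0.85, with 4.26% of all genes called higher), and in IP 1 of 9 rose and 3 fell (median -0.70). Fabp7, a fatty acid binding protein of radial glia, rose in input by 1.06 ± 0.196 against AAV control (adjusted p = 0.0246) and by 1.80 ± 0.154 against PBS (adjusted p = 1.83e-05). In IP against AAV control, Hes5, a Notch target, fell by 3.33 ± 0.247 (adjusted p = 3.48e-04), from 26.05 ± 5.66 to 2.47 ± 0.714 FPKM. In the same comparison Hopx fell by 1.71 ± 0.379 (adjusted p = 0.0185), Sox2 fell too and Lpar1 rose. Astrocytes share much of this list, and 6 of its 7 tested genes were enriched in IP of the AAV control group.

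**Figure D4:**
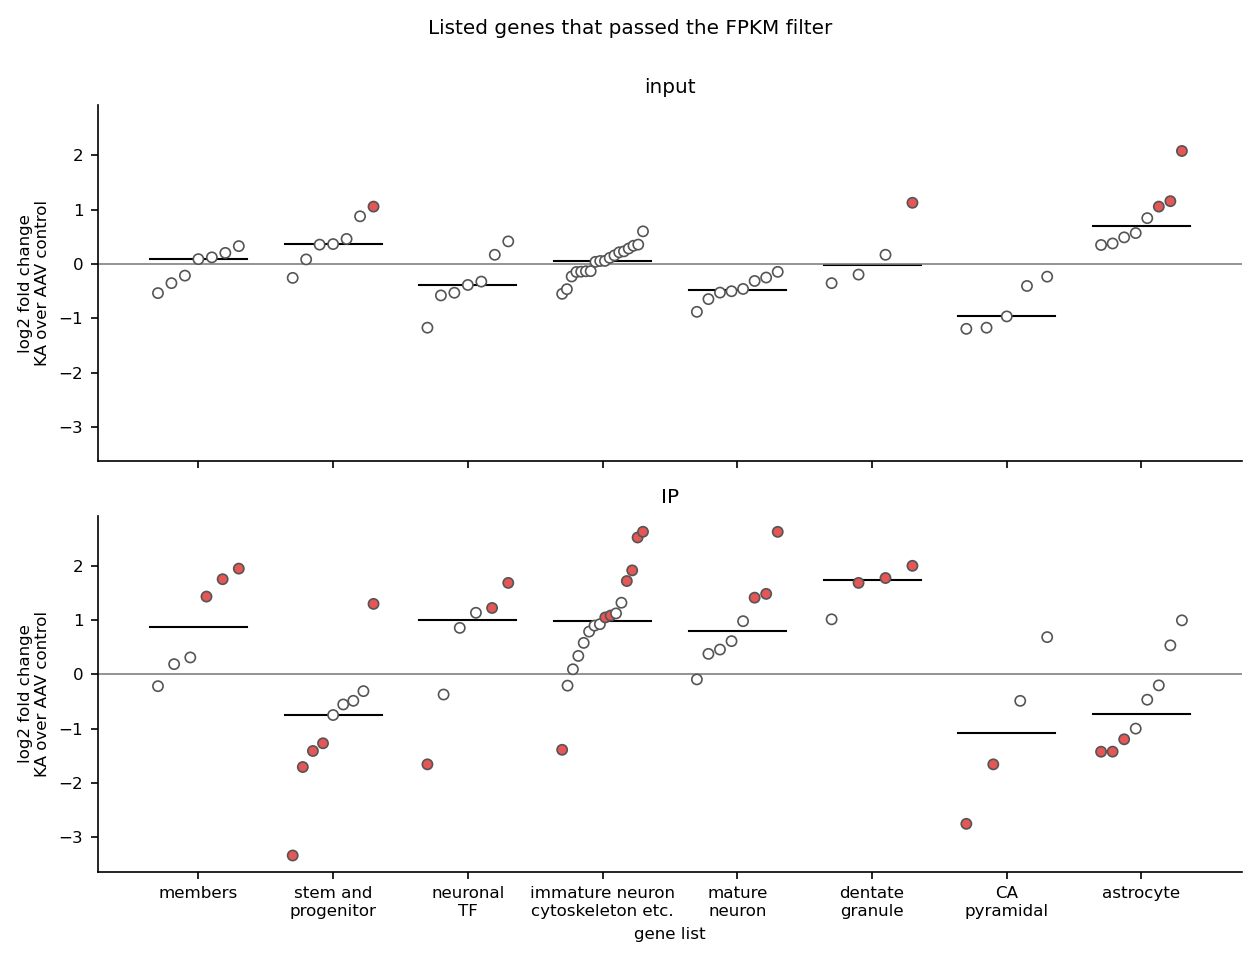
Log2 fold change of KA over AAV control for each gene of the members and of 7 other lists that passed the FPKM filter, in input (top) and IP (bottom); red points are DEGs and lines are medians. No member is red in input, and in IP the red points of the members (1.43 to 1.95) lie above 0, as do those of the mature neuron and dentate granule cell markers.

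Markers of other cells moved with these groups. The summed level of the 8 mature neuron markers in IP ran from 343 to 463 FPKM in AAV control, from 326 to 583 in PBS and from 1402 to 2292 in KA. Such sums weigh the genes of highest FPKM most. The median log2 fold change of these markers in IP was 0.80 against AAV control and 0.46 against PBS. By the DEG call, 3 of 8 (Snap25, Slc17a7 and Nrgn) rose against AAV control and 1 of 8 (Nrgn) against PBS. In the interaction test, the IP to input ratio rose for 6 of 8 against AAV control (median 1.33, members 1.05). Against PBS it rose for 3 of 8 (median 0.86, members 0.65), and 0 fell against either control. Of all genes, 5.1% and 4.98% were called higher in those tests. The sum of 7 dentate granule cell markers in IP was 19.4 to 19.98 FPKM in AAV control, 17.99 to 30.8 in PBS and 30.6 to 61.9 in KA, and 3 of 4 tested rose against AAV control and 2 of 4 against PBS. The 8 interneuron markers in IP summed to 210 to 303 FPKM in AAV control, 220 to 528 in PBS and 312 to 3087 in KA. Of 6 tested, 4 rose and 1 fell against AAV control, and 2 rose and 1 fell against PBS. The sum of 6 CA pyramidal cell markers in IP was 24.8 to 45.9 in AAV control, 29.6 to 62.1 in PBS and 16.7 to 20.3 in KA, and 2 of 4 tested fell against either control. The 6 oligodendrocyte markers summed to 247 to 1037 FPKM in AAV control IP, 277 to 550 in PBS IP and 1279 to 2439 in KA IP, and 2 of 6 rose against AAV control and 6 of 6 against PBS. The 8 astrocyte markers in IP summed to 2379 to 3599 in AAV control, 2281 to 3537 in PBS and 1873 to 2165 in KA. In input the mature neuron markers summed to 5468 to 6265 in AAV control, 4810 to 5438 in PBS and 3633 to 4970 in KA, and those of microglia to 76.8 to 128, 90.4 to 102 and 695 to 1225. No marker of these lists was at 0 over a group. The part of these shifts in the changes of Neurod1, Neurod2, Stmn1 and Dcx was not tested.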

How the data were processed

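RNA-seq data of 18 mouse libraries (9 input, 9 IP) were used. The authors prepared them with NEBNext Ultra II (E7770), a kit that does not mark strand, and aligned reads to mm10 with STAR. The processing notes name featureCounts and edgeR, and versions are not given in the sources used here. The deposited counts are whole numbers per gene symbol without normalization, and the deposited FPKM values scale them by the library total and gene length. Groups were taken from the labels.

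The deposited counts were tested with edgeR 4.0.16 under R 4.3.3 (TMM, quasi-likelihood test), using genes with FPKM above 1 in all compared libraries, with Benjamini-Hochberg adjustment over all genes tested. DEGs had adjusted p under 0.05 and absolute log2 fold change of at least 1. SE is the absolute log2 fold change over the square root of F. Interactions used 12 libraries and, like IP against input, did not pair the libraries of a homogenate except with the replicate block. Alternatives were RLE factors, DESeq2 1.42.0, limma 3.58.1 (voom), no filter, filterByExpr, a replicate block, sequencing run, run 1 alone, all 9 libraries of a kind and leaving out each library. Single genes were also compared by exact permutation on log2(FPKM + 1), where 3 against 3 cannot give a p below 0.1. Scripts were tested on simulated data.

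IP and input of 1 homogenate correlated in residuals at 0.155 to 0.751. Same-numbered KA and AAV control samples correlated at 0.351 to 0.550 in input and 0.348 to 0.551 in IP, and these numbers partly mark the run, while PBS samples did not pair.

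The members, the 4 pathway lists and the 11 marker lists were chosen with earlier results of these data known. All members are named, with the 3 listed genes of smallest p per pathway list in KA against AAV control, relatives of members, and, for likeness, the 2 genes with the smallest root mean square difference of centred log2 CPM. Other listed genes are named as DEGs of a list, and Elavl2 and Elavl4 were named after their values were seen. A listed gene that the rule names is not reported here. A count of 0 allows up to 3 counts, for counting error only.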

Additional observations from a re-analysis of the deposited data

Results flagged for a closer look

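The change in the IP to input ratio between groups was singled out for 4 genes, because the change after KA was not the same in IP as in input by the interaction test. Against AAV control, the difference of the log2 ratio was 1.85 for Neurod1, 1.80 for Neurod2 and 1.68 for Stmn1. Against PBS it was 1.495 for Neurod1, 1.01 for Neurod2, 2.01 for Stmn1 and, with filterByExpr, -1.28 for Dcx. The Dcx difference against PBS was lost without KA #3, at -0.91 (adjusted p = 0.0695). By the same test, 6 of 8 mature neuron markers rose against AAV control and 3 of 8 against PBS, and 0 fell. A rise of the ratio was thus not particular to these genes. No member was singled out for a single distant sample, since groups of 3 are not tested for that.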

How the results depend on the processing

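Of the 21 called fold changes of members that passed the FPKM filter, 17 kept the call and the direction under every alternative. The calls of Dcx with filterByExpr are not among the 21. Of those, the fall in IP against AAV control was lost without KA #1 and the interaction against PBS without KA #3. Across all 21, 222 alternatives kept the call, 15 lost it and 0 reversed, and every lost call was of Neurod2. Its interaction against PBS fell to 0.99 with limma voom and ranged from 0.89 to 1.16 with a homogenate left out, and that against AAV control from 1.68 to 1.94. In the KA group, the number of members called between IP and input was 2 in place of 1 with no filter and with filterByExpr, by the addition of Dcx, and between PBS and AAV control in IP it was 0 to 1 with a library left out (Sox4). Sox11 in IP against input of PBS passed the fold without PBS #1, at -1.09. With the replicate block, which pairs samples by number, Neurod1 in IP against AAV control was 1.96 (adjusted p = 6.74e-04), Stmn1 1.77 and Neurod2 1.44, and the block changed no DEG call of a member that passed the FPKM filter.

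Uncalled values near 0 changed sign. In run 1 alone, Neurod1 in input against AAV control was -2.79e-05 and Sox11 was -0.12 in input and -0.10 in IP. The Sox11 interaction against AAV control was -0.0111 with RLE factors and -0.0108 with DESeq2. Sox4 in IP against input of PBS was -0.0212 with no filter and -0.0103 with filterByExpr, its interaction against PBS 0.00948 with no filter, and Stmn2 in KA against PBS in IP 0.0485 and 0.00355. With a pseudocount of 0.1, the ratio difference of Igfbpl1 against AAV control was 0.0830 and that of Sox11 against PBS 0.0687 (log2). Ranges that crossed 0 with a library or homogenate left out are given in log2 units. In PBS against AAV control in input they were Dcx -0.26 to 0.0135 and Stmn1 -0.0892 to 0.10. In KA against AAV control in input they were Neurod1 -0.0127 to 0.20 and Stmn2 -0.35 to 0.0124. In PBS against AAV control in IP they were Neurod1 -0.22 to 0.26 and Neurod2 -0.0663 to 0.47. In KA against PBS in input they were Neurod2 -0.0100 to 0.35 and Stmn1 -0.000134 to 0.19. In KA against AAV control in IP they were Sox11 -0.0343 to 0.53 and Sox4 -0.50 to 0.0718. In the interaction against AAV control they were Sox11 -0.11 to 0.0604 and Igfbpl1 (filterByExpr) -0.34 to 0.74. In the interaction against PBS they were Sox11 -0.0831 to 0.39. In IP against input in PBS they were Sox4 -0.17 to 0.20. These additional fits of Dcx and Igfbpl1 with filterByExpr were chosen after seeing the data.
Depth limits Eomes and Igfbpl1, and the pools, the run of PBS and the age of AAV control mice limit the comparisons they enter.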

Other observations

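Genes of the cell cycle were near the detection limit. Of 10 listed, only Pcna passed the FPKM filter, at 14.6 ± 1.83 FPKM in AAV control input and 16.8 ± 2.86 in KA input (SD, n = 3), with a log2 fold change of 0.19 ± 0.177 (edgeR, adjusted p = 0.652), and in IP -0.04 ± 0.157 (adjusted p = 0.874). The division markers Mki67 and Top2a stayed under 1 FPKM in every library, and in input Mki67 was 0.279 ± 0.0784 in AAV control and 0.323 ± 0.0412 in KA. Top2a in input was 0.129 ± 0.0262 in AAV control, 0.135 ± 0.0629 in PBS and 0.391 ± 0.142 in KA, and Cdk1 was 0.166 ± 0.190, 0.119 ± 0.0731 and 0.902 ± 0.159. In IP of the same groups Top2a was 0.264 ± 0.0723, 0.334 ± 0.142 and 0.253 ± 0.150, and Cdk1 0.197 ± 0.119, 0.237 ± 0.1003 and 0.336 ± 0.0899. Neither passed the FPKM filter, so no fold change is given for them, and these 2 genes were chosen after their values were seen. Microglial markers rose in the same libraries, and their part in this was not tested.

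Genes that followed the members most closely over the libraries were named by the root mean square difference of centred log2 CPM. Over 18 libraries, which share homogenates and runs, Bok was nearest to both Stmn1 (0.220, median over 9001 genes 1.025) and Neurod1 (0.245, median 1.045), followed by Nefl and Hsph1. Bcl11b (0.219) and Pak3 (0.232) were nearest to Neurod2, Gng3 (0.199) and Crym (0.264) to Stmn2, Bag1 (0.163) and Nkap (0.176) to Sox4, and Alg10b (0.289) and Ier3ip1 (0.316) to Sox11. Over the 9 input libraries, Zfhx2 (0.0869) and Ralgps1 (0.0877) were nearest to Dcx. Among the members, Neurod1 and Stmn1 were the closest pair of the 18-library comparison, at 0.352, and Stmn1 and Stmn2 stood at 1.03.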
